A study of Mus musculus with 2 samples.

Results

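The cells described here were conventional CD4 T cells from 4T1 tumours, chosen by their own transcripts in single-cell RNA sequencing. A cell entered the gate if it held at least 2 unique molecular identifiers (UMIs, each standing for 1 captured RNA molecule) of Cd3d, Cd3e, Cd3g and Trbc2 together and at least 1 of Cd4. It could hold no UMI of Cd8a, Cd8b1, Foxp3 or Csf1r, and not both Ikzf2 and Il2ra. It could also hold at most 2 UMIs of the C1q genes together and fewer than 2 of Mki67 and Top2a together. The gate took 127 of 21664 kept barcodes, 56 of 10803 in the vehicle library and 71 of 10861 in the beta-elemene library. Since these genes chose the cells, their levels are given as a description only.

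The 4T1 line is a mouse mammary carcinoma used as a model of triple-negative breast cancer. Tumours were raised by injecting 4T1 cells in Matrigel into the mammary fat pad. Mice then received beta-elemene, a plant sesquiterpene, by daily injection into the abdomen at 30 mg/kg, or the same volume of normal saline (the vehicle group). Tumours were collected after 18 days and sequenced as 1 library per group with 3' droplet chemistry. The tissue is labelled breast, and the labels give no strain, sex or age and do not say how many mice went into a library. Differences between the libraries therefore have no replicate check, no test was made between them, and every interval on them covers counting error only. A lower level in every cell cannot be told apart from a change in which CD4 cells the gate took.

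Conventional CD4 T cells recognise peptides on MHC class II through the T cell receptor and the CD4 coreceptor. Before they meet antigen they recirculate through lymph nodes under the control of Klf2, S1pr1 and Ccr7, and they depend on Il7r and Bcl2 for survival and on Lef1 and Tcf7 for their naive programme. After activation they help other cells through CD40 ligand and other members of the tumour necrosis factor (TNF) family and through cytokines. Th1 cells make interferon gamma, Th2 cells make interleukins 4, 5 and 13, Th17 cells make interleukin 17, and follicular helper cells provide help to B cells. Regulatory T cells, which carry Foxp3, are the suppressive CD4 lineage. They were gated apart by a UMI of Foxp3 or by UMIs of both Ikzf2 and Il2ra.

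The median cell of the gate held 4131 UMIs and 1627.5 genes in vehicle and 4144 UMIs and 1613 genes with beta-elemene. The summed gates held 286248 and 340222 UMIs. Most cells carried few transcripts of other lineages, but 7 vehicle cells and 4 beta-elemene cells held at least 10 UMIs of a marker list of macrophages, neutrophils, malignant cells or fibroblasts. These are called mixed barcodes below. They held 30.5% of the vehicle UMIs and 12.8% of the beta-elemene UMIs, and the largest single cell held 10.9% and 5.29%. The fibroblast list, for example, summed to 1200 UMIs in vehicle, of which 1161 lay in mixed barcodes, and to 942 with beta-elemene, of which 894 did. The neutrophil list summed to 963 and 620 UMIs, with 947 and 569 in mixed barcodes. B cell and dendritic cell markers were at 0 in both libraries. A caller of doublets marked 4 and 2 cells of the gate, all of them mixed barcodes. Results that rest on sums are therefore given with all cells and again without the mixed barcodes, a setting chosen after the data were seen. Ratios between the libraries in the other T cell gates are given with all cells only. The libraries shared 37 cell barcodes, and none of these was in the gate.

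**Figure D1:**
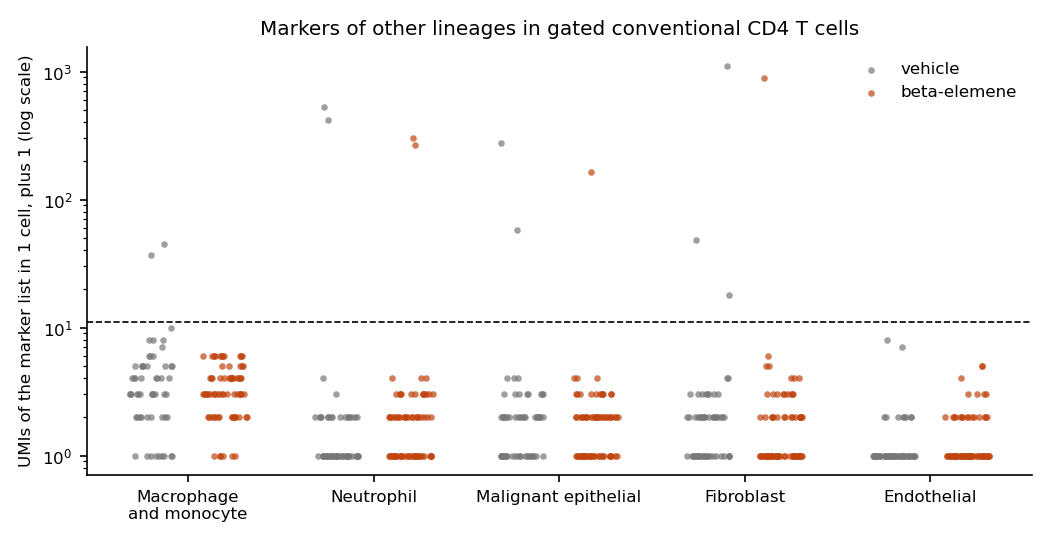
Each point is 1 gated conventional CD4 T cell, and the vertical axis (log scale) gives its UMIs from the marker list named on the horizontal axis, plus 1. The dashed line marks 10 UMIs; the points above it belong to the mixed barcodes, 7 vehicle cells and 4 beta-elemene cells, some of which pass it for more than 1 list.

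Cells just inside and just outside the gate differed by few UMIs. Of the cells inside, 23 in vehicle and 40 with beta-elemene held exactly 1 UMI of Cd4, and the others held 2 to 7. The median sum of Cd3d, Cd3e, Cd3g and Trbc2 was 10 in both libraries, and 3 and 2 cells held exactly 2. Another 230 and 244 cells met every condition except that they held no UMI of Cd4. On the side of the regulatory lineage, 11 vehicle cells and 5 beta-elemene cells were left out for holding Foxp3, 5 and 2 of them with exactly 1 UMI. A further 8 and 19 cells without Foxp3 were left out because they held both Ikzf2 and Il2ra. Cells in which transcripts of Foxp3 went uncaptured can remain in the gate, and 15 and 8 members held Ikzf2 without Il2ra.

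The gate made up 0.518% of kept barcodes in vehicle (exact binomial 95% interval 0.392 to 0.673) and 0.654% with beta-elemene (0.511 to 0.824). The difference was 0.135 percentage points, with an interval from -0.0696 to 0.343. Among the gated T cells (conventional CD4, regulatory CD4 and 2 CD8 gates together) the share was 23.05% (56 of 243) and 24.3% (71 of 292), a difference of 1.27 points with an interval from -6.03 to 8.41. When Foxp3 alone separated the regulatory cells, the gate held 64 and 90 cells, and the difference in the share of kept barcodes was 0.236 points (0.0118 to 0.464). When Cd4 had to reach 2 UMIs, it held 33 and 31 cells, and the order of the shares turned. With cells thinned to 1000 UMIs before gating, 22 cells remained in each library.

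The 5 genes that mark this cell type were present, in unequal measure. Cd4 (chromosome 6, 124864692 to 124888221, mm10) was in every cell by construction, at 402 UMIs for each 1000000 of the gate's total (CPM) in vehicle and 370 with beta-elemene. Lef1 (chromosome 3, 131110471 to 131224356), a transcription factor of naive T cells, was seen in 41.1% of vehicle cells and 49.3% of beta-elemene cells. Its share was much the same in CD8 cells without Havcr2 or Gzmf, at 47.2% and 41.2%. Tcf7 (chromosome 11, 52252371 to 52283014), its partner in the naive and memory programme, was in 28.6% and 31.0%. S1pr1 (chromosome 3, 115710433 to 115715072), the receptor that draws T cells out of tissue along sphingosine 1-phosphate, was in 28.6% and 28.2%. Cd40lg (chromosome X, 57212143 to 57224042), the ligand through which helper cells license dendritic and B cells, was in 25.0% and 23.9%, against 2.11% and 2.03% of the CD8 cells. Thinned to 1000 UMIs per cell, the shares for Lef1 were 20.0% and 18.9%, for Tcf7 8.12% and 7.88%, for S1pr1 11.4% and 10.6% and for Cd40lg 6.56% and 7.57%.

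A pair of background gates was read beside them. In macrophages (C1q and Csf1r positive, no UMI of the CD3 genes or Trbc2), with median depths of 13843.5 and 12690 UMIs, Lef1 was in 1.38% and 0.647% of cells, Tcf7 in 1.67% and 1.65% and Cd40lg in 0.435% and 0.683%. S1pr1 was in 12.8% and 8.66% of macrophages, or 1.46% and 1.00% thinned to 1000 UMIs. In cells with keratin and no Ptprc, with median depths of 20878 and 21103, Lef1 was in 8.31% and 7.31% and Tcf7 in 9.91% and 9.68%. Thinned to 1000 UMIs, Lef1 and Tcf7 stood at 0.484% to 0.512% and 0.417% to 0.517% of these cells, below the values in the gate. Most cells of the gate had no captured UMI of Ccr7, a lymph node homing receptor, which was in 11 of 56 and 13 of 71 cells. Of the 5 markers, Cd40lg was thus far more frequent than in CD8 cells, while Lef1 marked CD4 and CD8 cells alike in share.

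**Figure D2:**
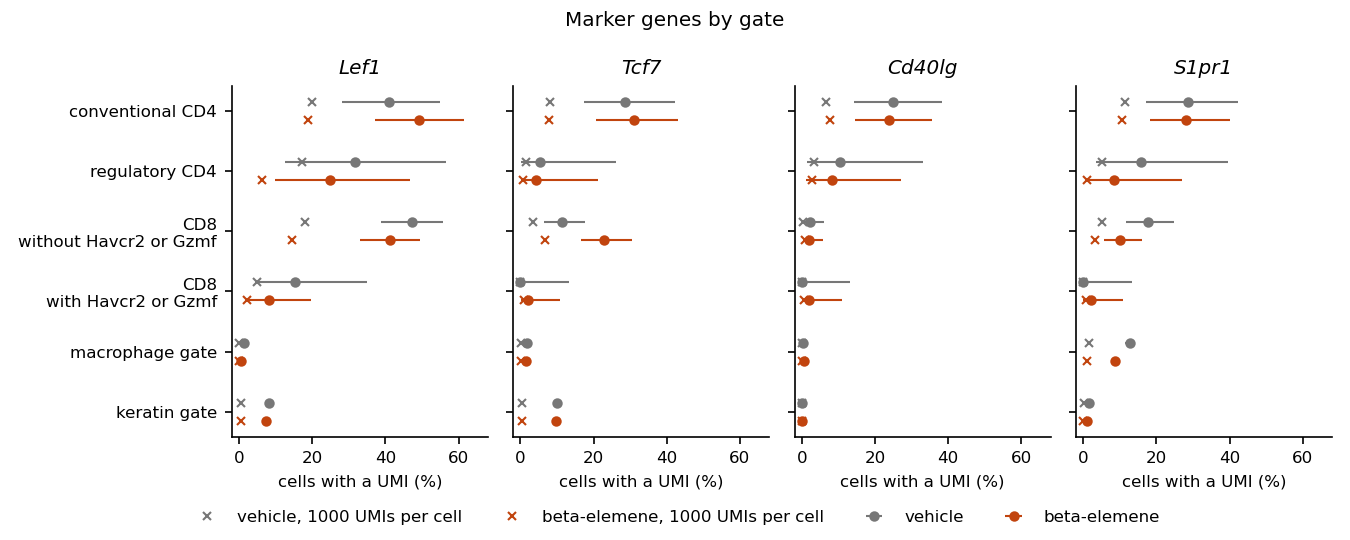
Share of cells with at least 1 UMI of Lef1, Tcf7, Cd40lg and S1pr1 (horizontal axes, percent) in 4 T cell gates and 2 background gates (rows). Circles are all cells with exact binomial 95% intervals and crosses are cells thinned to 1000 UMIs; Cd40lg stands at 25.0% and 23.9% of conventional CD4 cells and at no more than 2.11% of CD8 cells without Havcr2 or Gzmf.

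To see what sets these cells apart from the other T cells of the same tumours, UMIs were summed per gate and library and 4 gates in 2 libraries were fitted together with edgeR's quasi-likelihood test, with the library as a term. The repeats were the 2 libraries, which are also the 2 treatments, so p-values measure only the spread between these sums. Against CD8 cells without Havcr2 or Gzmf (142 and 148 cells), 92 of 5382 genes were called higher in conventional CD4 cells (adjusted p under 0.05 and at least 2-fold), which is 1.71% of those tested. Another 41 genes, 0.762%, were called lower. Without the mixed barcodes, 169 of 4410 genes (3.83%) were called higher and 84 (1.9%) lower, and 81 of the 92 and 37 of the 41 were among them. Genes used by the gates are among the called genes in both settings, Cd4 and Havcr2 higher and Cd8a and Cd8b1 lower. Their calls follow from the gates. With all cells, 87 of the 92 and 36 of the 41 met the naming rule, which leaves gate genes out.

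Members of the TNF family and its receptors were among the genes called higher in the CD4 cells. Tnfsf8 (chromosome 4, 63831308 to 63861347), which encodes CD30 ligand, stood at 398 CPM in vehicle and 764 with beta-elemene, against 4.09 and 13.0 CPM in the CD8 cells. Its log2 fold change was 6.02 (SE 0.333, edgeR adjusted p = 9.0e-06). Tnfrsf4 (chromosome 4, 156013843 to 156016612), the costimulatory receptor OX40, stood at 283 and 332 CPM against 21.8 and 8.26, with a log2 fold change of 4.35 (SE 0.380, edgeR adjusted p = 0.000145). Cd40lg was called higher with a log2 fold change of 3.49, and Tnfsf11, which encodes RANK ligand, with 2.80. Tnfrsf18 (GITR), another costimulatory receptor, was called higher with 1.90. Tnfrsf9 (4-1BB) was called higher at 535 and 508 CPM against 258 and 124. Of 11 tested costimulation genes 4 were called higher and 1 lower, Cd27, at 24.5 and 35.3 CPM against 81.8 and 87.3. Of 12 tested helper cytokines and ligands 4 were called higher: Areg, Tnfsf8, Tnfsf11 and Cd40lg. Of all genes tested 1.71% were called higher. Against regulatory CD4 cells, described below, 0 of the 12 helper genes and 0 of the 11 costimulation genes were called. Their median log2 fold changes there were 0.03 and -0.23. These lists were thus set apart from CD8 cells but not from regulatory cells.

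Genes of the Th2 programme were also called higher than in CD8 cells. Of 6 tested Th2 genes 4 were called higher. They were Gata3, the master regulator of Th2 cells, at a log2 fold change of 2.08, Il1rl1, the interleukin 33 receptor, at 4.24, Maf at 3.52 and the growth factor Areg at 2.90. Mixed barcodes held 67.3% of the Areg UMIs, and without them Areg was still called, at 2.62. The list's median was 2.49, against -0.01 for all genes tested. Against regulatory CD4 cells, described below, the median of the same list was -0.53, and -0.83 without the mixed barcodes. The Th2 genes as a list were thus not higher than in regulatory cells. Il7r, the survival receptor, was called higher with 1.89 and Ifngr2, a chain of the interferon gamma receptor, with 2.31. Bhlhe40 was the called member of the Th1 list (1.63) and Rora that of the Th17 list (1.54). Tox, a factor of follicular and exhausted cells, was called higher with 1.43. Klf2, S1pr1 and Csf2 missed the call with all cells (edgeR adjusted p = 0.104, 0.077 and 0.106) and passed it without the mixed barcodes, with log2 fold changes of 1.40, 1.49 and 5.80.

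The cytotoxic programme was low in the CD4 cells. Of 11 tested cytotoxic genes 10 were called lower, with a median log2 fold change of -2.49, and the same 10 were called without the mixed barcodes. Gzma, a granzyme, had 0 and 3 UMIs in the CD4 gates and 484 and 407 in the CD8 gates. Prf1, which encodes perforin, had 1 and 0 UMIs against 32 and 23. Ccl5, a chemokine, stood at 576 and 614 CPM against 4862 and 4651, a log2 fold change of -3.02. Gzmb stood at 87.3 and 99.9 CPM against 737 and 618, and Nkg7, a granule protein, at 147 and 203 against 973 and 966. The 12 lowest named genes were Gzma, Prf1, the NK-type receptors Klrc1 and Klrc2, Ccl5, Ccbe1, the surface protein Ly6c2, the collagen-binding integrin Itga1, Gzmb, H19, Mgp and Ccl4. Of the 12 highest, Nrxn3, Prlr and Acod1 held more than 50% of their CD4 UMIs in mixed barcodes. The remaining 9 were Tnfsf8, the actin-severing Scin, Tnfrsf19, the receptor tyrosine kinase Kit, Tnfrsf4, Il1rl1, Krt83, the sialyltransferase St6gal1 and Maf. Kit is also a mast cell marker. Cpa3 and Mcpt4, other members of the mast cell marker list, were at 0 in the gate in both libraries. Hdc, a gene of mast cells and basophils among others, had 37 and 26 UMIs. A part of mast cells or basophils in the UMIs of Kit and Hdc was not tested.

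**Figure D3:**
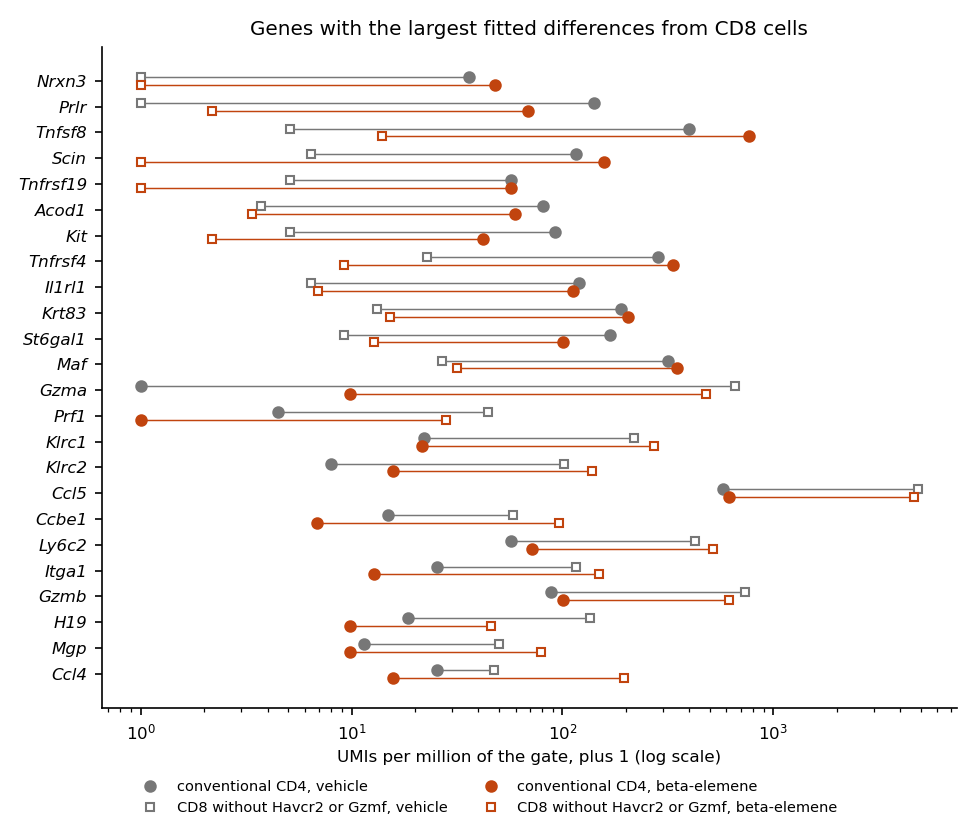
CPM plus 1 (log scale) in conventional CD4 cells (filled circles) and CD8 cells without Havcr2 or Gzmf (open squares), in vehicle (grey) and beta-elemene (orange), for the 12 highest and 12 lowest fitted log2 fold changes. In each gene both filled circles lie on the same side of their open squares, as the naming rule required.

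Against regulatory CD4 cells (19 and 24 cells) the fit called fewer genes, 16 higher (0.297% of 5382) and 23 lower (0.427%). The 23 include Foxp3, Ikzf2 and Il2ra, whose calls follow from the gates. The naming rule, which leaves gate genes out, was met by 15 of the 16 and 19 of the 23. Of these regulatory cells 11 in vehicle and 5 with beta-elemene held a UMI of Foxp3. The other 8 and 19 held none and were taken for Ikzf2 and Il2ra. The fit was also run on simulated sums of 5270 genes, drawn with a common spread and no gate differences apart from the changed genes. At an edgeR adjusted p under 0.05, with no minimum fold, this comparison recovered 80.0% of genes raised 4-fold but 12.5% of those raised 2-fold. It recovered 50.0% of genes lowered 4-fold but 2.38% of those lowered 2-fold. In that simpler setting, 2-fold differences thus went largely unseen. Bcl2 (chromosome 1, 106538178 to 106714274), which protects lymphocytes from apoptosis, stood at 430 and 855 CPM against 150 and 146 in the regulatory cells. Its log2 fold change was 2.27 (SE 0.325, edgeR adjusted p = 0.0138). Bach2, a repressor that holds T cells in a resting state, was called higher with 2.06, and Ccl5 with 1.36. Of the 12 highest named genes 10 held more than 50% of their CD4 UMIs in mixed barcodes: S100a9, Serping1, Col3a1, Krt19, Col5a2, S100a8, Col1a2, Sparc, Col1a1 and G0s2. Hdc, histidine decarboxylase, had 37 and 26 UMIs against 0 and 0, in 4 and 5 cells, and 1 vehicle cell held 28 of the 37. Without the mixed barcodes it had 35 and 12, in 3 and 3 cells.

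Without the mixed barcodes 18 of 4410 genes (0.408%) were called higher than in regulatory cells and 36 (0.816%) lower, of which 6 and 22 had been called with all cells. Here Tcf7 was called higher, with 21 and 28 UMIs against 1 and 1 and a log2 fold change of 3.15 (edgeR adjusted p = 0.0311). With all cells its adjusted p was 0.054. Klf2 was called with 1.44 and Bach2 with 2.33, so that 3 of 10 tested genes of the naive and recirculation list were higher. Ly6c2 (15 and 24 UMIs), Tmem176b (11 and 25) and Cxcl10 (20 and 8) were called higher against 0 UMIs in the regulatory cells. Their log2 fold changes had wide SEs, from 1.65 to 1.79, and with all cells counted Cxcl10 lay in 3 and 7 cells. Arid5a, Eef1d and Pde3b were called higher too.

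Of the 23 genes lower than in regulatory cells, 22 were called without the mixed barcodes as well. The exception was Gzmb, whose log2 fold change went from -1.67 to -0.68 (edgeR adjusted p = 0.0256 and 0.584). The integrin Itgb8, part of the receptor that activates transforming growth factor beta, had 1 and 0 UMIs against 16 and 23. Its partner Itgav stood at 168 and 153 CPM against 1305 and 725, a log2 fold change of -2.44 (edgeR adjusted p = 0.00633). Tox had a log2 fold change of -2.03, Il1rl1 of -1.73 and Rel, an NF-kappaB subunit, of -1.43. Also lower were Nckap5, Pcyt1a, Pakap, Lsamp, Myo1e, Sh3rf1, Ly75 and Sytl2, with log2 fold changes from -3.68 to -2.06. Il1rl1 and Tox were thus lower than in regulatory cells and higher than in CD8 cells. The regulatory gate used Ikzf2, Il2ra and Foxp3, the 3 members of the regulatory marker list that were called lower. The list's other 5 markers missed the call, among them Ctla4 (-1.04), Tnfrsf4 (-0.86) and Tnfrsf18 (-0.81). The median log2 fold change of all 8 was -1.62. It includes the 3 gate genes, whose low values follow from the gates, and is a description only.

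Inside the gate, cells with a UMI of Tnfrsf4, which were 33 of 56 and 49 of 71, were set beside those without, a split chosen after values were seen and made without a test. Cells with it carried more Ctla4, the inhibitory receptor for CD80 and CD86, at 389 and 425 CPM against 75.6 and 131. Of the UMIs on the vehicle side without Tnfrsf4, 132193 in all, 71423 were left when mixed barcodes were dropped, and Ctla4 then stood at 455 and 459.5 CPM against 112 and 157. Tnfrsf9 stood at 805 and 597 CPM in cells with Tnfrsf4 against 219 and 239, and at 611 and 653 against 308 and 219.7 without mixed barcodes. Gbp4, a guanylate-binding protein induced by interferon and picked from its list after its values were seen, stood at 26.0 and 42.9 CPM in cells with Tnfrsf4 against 83.2 and 203. Dropping the mixed barcodes gave 31.4 and 47.2 against 154 and 267. With all cells, the side with Tnfrsf4 held 154055 and 256510 UMIs in all and the side without it 132193 and 83712. Each Gbp4 value thus rested on few UMIs. Cells with Tnfrsf4 were deeper, with a median of 4409 and 4695 UMIs against 3955 and 3162, and the part of depth in these differences was not tested.

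Helper cytokines were sparse, and each was carried by a few cells. Cells with a UMI of Ifng or of the Th1 factor Tbx21 were 14 of 56 in vehicle (25.0%, exact 95% interval 14.4 to 38.4) and 6 of 71 with beta-elemene (8.45%, 3.16 to 17.5). They were 13 of 49 and 6 of 67 without the mixed barcodes. The difference lay in Ifng, which was in 12 vehicle and 3 beta-elemene cells with all cells counted. Tbx21 was in 3 cells of each library, with 3 and 4 UMIs. Cells with Il4, Il5, Il13 or Il1rl1 were 12 (21.4%) and 14 (19.7%). Cells with Bcl6, Cxcr5 or Il21, genes of follicular helper cells, were 8 and 4, and 5 of 49 and 1 of 67 without the mixed barcodes. In each library 1 cell carried both a Th1 and a Th2 gene. Il21 and Il17f were not seen, and 0 UMIs allow up to 3 in each library's sum at this depth. Il2 had 0 UMIs in vehicle and 1 with beta-elemene.

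Ifng (chromosome 10, 118441046 to 118445892), the Th1 cytokine, was sparser in the beta-elemene library. It had 19 UMIs in 12 vehicle cells (66.4 CPM) and 4 UMIs in 3 beta-elemene cells (11.8 CPM), a ratio of 0.177 with a counting interval from 0.0438 to 0.533. Thinned to 1000 UMIs, 8.48% and 1.02% of cells held it, and in macrophages the unthinned share was 0.218% and 0.0359%. No vehicle cell held more than 3 UMIs of Ifng, and the ratio without the mixed barcodes was 0.168. Its ratio in CD8 cells without Havcr2 or Gzmf was 0.375 (0.234 to 0.587). Csf2 (chromosome 11, 54247271 to 54249667), the growth factor GM-CSF, had 33 UMIs in 5 vehicle cells and 5 UMIs in 2 beta-elemene cells, but 1 vehicle cell held 17. Il13 (chromosome 11, 53631324 to 53634702) went the other way, from 2 UMIs in 2 cells to 24 UMIs in 6 cells, of which 1 cell held 13. Il5 had 12 UMIs in 2 vehicle cells, 11 of them in 1 cell, and 0 with beta-elemene. Il17a had 0 UMIs in vehicle and 9 in 3 beta-elemene cells. All 5 cytokines lie under the minimum of 50 UMIs for a called ratio and were singled out after their values were seen.

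Of 1913 genes with at least 50 UMIs in both sums together, 96 (5.02%) were at least 1.5-fold higher with beta-elemene with a counting interval off 1, and 139 (7.27%) were at least 1.5-fold lower. Without the mixed barcodes 1427 genes could be read, of which 53 (3.71%) were higher and 73 (5.12%) lower, and 38 of the 96 and 39 of the 139 were among them. The balance of higher and lower genes moved with the scaling. It was 96 to 139 in CPM, 122 to 117 without mitochondrial and ribosomal protein UMIs, 127 to 122 with TMM factors and 183 to 97 with median-of-ratios factors. The last factor moved the median log2 ratio of all genes from 0.0045 to 0.138.

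Klf2, Bcl2, Selplg and Tnfsf8 were among the genes called higher with beta-elemene, while the lists that hold survival and trafficking genes had few calls. Naive and recirculation genes had 2 higher and 0 lower of 10 measured, and 1 and 1 of 8 without the mixed barcodes. The 2 were Klf2 and Igfbp4, and 1 beta-elemene cell held 47 of the 54 Igfbp4 UMIs of that library. Of all genes measured, 5.02% were higher and 7.27% lower. Apoptosis regulators had 1 higher and 1 lower of 8, and homing and adhesion genes likewise 1 and 1 of 8. Klf2 (chromosome 8, 72319033 to 72321656), the factor that maintains recirculation, had 60 UMIs in 25 vehicle cells and 145 in 40 beta-elemene cells, or 210 and 426 CPM. Its ratio was 2.03 (1.495 to 2.795), and 1.83 (1.32 to 2.57) without the mixed barcodes. Bcl2 stood at 430 and 855 CPM, a ratio of 1.99 (1.61 to 2.48), and 1.56 without the mixed barcodes. Its antiapoptotic relative Bcl2l1 went the other way, from 150 to 67.6 CPM, a ratio of 0.450 (0.259 to 0.764). Selplg, the selectin ligand of T cells, stood at 164 and 309 CPM, a ratio of 1.88 (1.32 to 2.71). Tnfsf8 was seen in 23 of 56 and 44 of 71 cells and had a ratio of 1.92 (1.53 to 2.41), and of 1.58 without the mixed barcodes. Il7r had a ratio of 1.34 (1.09 to 1.65), short of 1.5-fold. Cxcr4, a homing receptor, had 9 UMIs in 7 cells and 32 in 22 cells, a ratio of 2.99 (1.40 to 7.13), which was singled out after its values were seen.

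Cxcr6 (chromosome 9, 123806475 to 123811760), the receptor for Cxcl16 carried by tissue-resident and Th1 cells, was among the lower genes that did not rest on mixed barcodes. It had 76 UMIs in 27 vehicle cells and 38 in 24 beta-elemene cells, or 266 and 112 CPM, a ratio of 0.421 (0.277 to 0.629), and 0.350 (0.228 to 0.527) without the mixed barcodes. No single cell held more than 8 of these UMIs. Hk2, the inducible hexokinase, stood at 199 and 70.5 CPM, a ratio of 0.354 (0.210 to 0.580), while the glycolytic enzyme Tpi1 had a ratio of 1.64 (1.18 to 2.30). Slfn5 had a ratio of 0.249, with 44 and 13 UMIs, and 0.288 without the mixed barcodes.

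With all cells the counting interval of each marker gene covered 1: Lef1 had a ratio of 0.929 (0.659 to 1.31), Tcf7 of 1.11 (0.615 to 2.03), Cd40lg of 1.36 (0.728 to 2.59) and S1pr1 of 0.792 (0.473 to 1.32). Lef1 had 0.755 (0.532 to 1.07) without the mixed barcodes and was called lower, at 0.640, in cells with a C1q sum of 0. The summed ratio of the marker list, Cd4 included, was 0.953 (0.803 to 1.13) with all cells and 0.791 (0.663 to 0.946), an interval off 1, without the mixed barcodes. In the latter sum Cd4, which chose the cells, gave 104 of 234 UMIs in vehicle and 119 of 276 with beta-elemene. The interval of each marker gene alone covered 1 there too. The list's sum is thus a description only. Of the genes that set the gate, Ikzf2, which is shared with regulatory cells, stood at 213 CPM in vehicle and 70.5 with beta-elemene, and its part in the differences above was not tested.

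**Figure D4:**
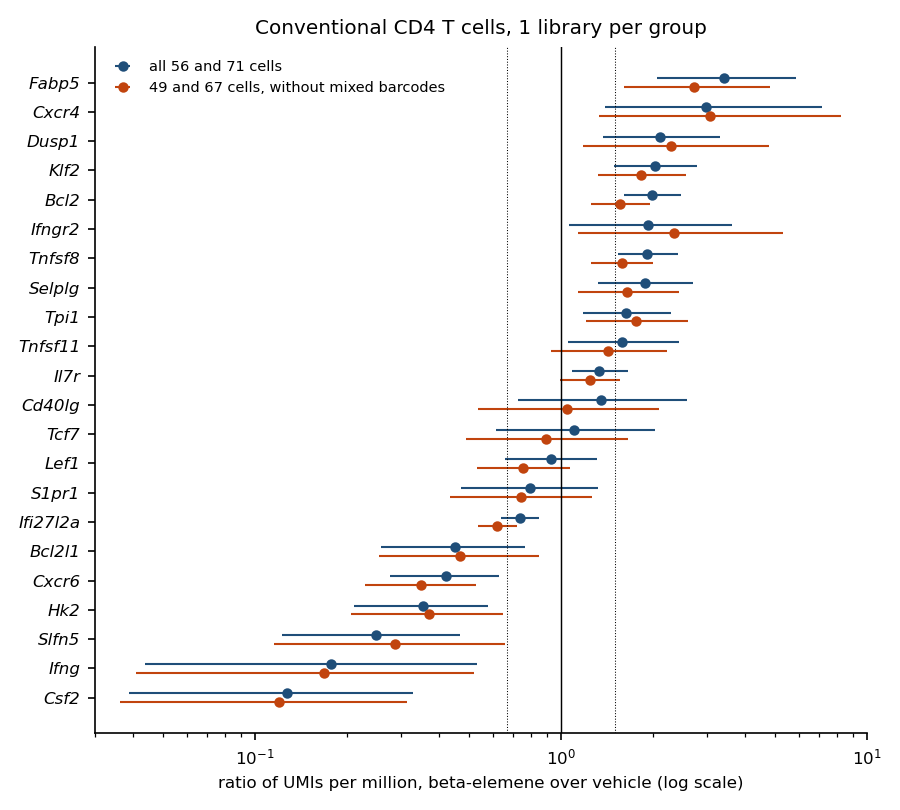
Ratio of CPM with beta-elemene over vehicle (log scale) for genes described in the text, in all gated cells (blue) and without the mixed barcodes (orange), with exact 95% counting intervals. The dotted lines mark 1.5-fold; Klf2, Bcl2, Tnfsf8 and Selplg lie above 1 and Cxcr6, Hk2, Bcl2l1 and Ifng below 1 in both settings.

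By the naming rule, which also asked for a UMI in at least 5% of cells, the 12 highest ratios belonged to Fabp5, Plcxd2, Trp53inp1, Rest, Ranbp9, Cdk6, Lamtor2, Hist1h1e, Adipor2, Cyth1, Gng10 and Arid5a. Fabp5 (chromosome 3, 10012548 to 10016607), a fatty acid carrier, had 20 UMIs in 14 vehicle cells and 81 in 24 beta-elemene cells, a ratio of 3.41 (2.07 to 5.87), but 1 beta-elemene cell held 24. Cdk6, a kinase of the G1 phase, had 47 UMIs in 26 cells and 140 in 44 cells, a ratio of 2.51 (1.79 to 3.57), and 1.998 without the mixed barcodes. Of the 12, 1 (Trp53inp1) held more than 50% of its UMIs in mixed barcodes. Of the 12 lowest this held for 11, among them Rarres2, Dlc1, Retnlg, Cpxm1, Lum, Rbms3, Gpm6b, Penk, Postn and Sdc4. Lum and Postn are matrix genes of fibroblasts and Retnlg is a neutrophil gene, and Rarres2, the lowest, had 330 UMIs in 5 vehicle cells. The twelfth was Slfn5.

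Without the mixed barcodes the same rule gave Gnai3, Fabp5, Rexo2, Hist1h1e, Serpinb9, Dusp1, Ero1l, Lamtor2, Ndufb8, Nme1, Ranbp9 and Park7 as the highest. Dusp1, a phosphatase that curbs MAP kinases, stood at 60.3 and 138 CPM there, a ratio of 2.29 (1.18 to 4.79). The lowest were Pde7b, Dleu2, Cxcr6, Hk2, Purb, Foxn3, Insyn2b, Ece1, Mir155hg, Esco1, Prdm2 and Rtn4. Mir155hg, the host transcript of a microRNA induced by T cell activation, had 39 UMIs in vehicle and 24 with beta-elemene, a ratio of 0.413 (0.238 to 0.704). Of the 39, 21 lay in 1 cell, and the ratio without the highest cell of each library was 0.583. Pde7b had 43 UMIs in 8 vehicle cells and 23 in 5 beta-elemene cells with all cells counted.

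Ribosomal protein genes had a ratio above 1 in 69 of 82 measured genes, with a median log2 ratio of 0.35, and their sum stood at 213147 CPM in vehicle and 253881 with beta-elemene. Of these 82 genes 4 were called higher at 1.5-fold, a share near the 5.02% of all genes. Without the mixed barcodes 68 of 81 were above 1, with a median of 0.38, and 7 were called higher. Genes of MHC class I presentation were above 1 in 11 of 14, with a median log2 ratio of 0.27, and Psmb9 (1.53) and Psme2 (1.55), parts of the immunoproteasome, passed 1.5-fold. Neither passed it without the mixed barcodes, at 1.30 and 1.46. For comparison, 965 of all 1913 genes were above 1, with a median of 0.0045.

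The type I interferon response list lay lower, at 2910.1 CPM in vehicle and 2075 with beta-elemene, a summed ratio of 0.713 (0.644 to 0.789), and 0.641 without the mixed barcodes. Of its 6 measured genes 5 were below 1. The most abundant, Ifi27l2a, stood at 1488 and 1096 CPM, a ratio of 0.737 (0.639 to 0.849), and was seen in 51 of 56 and 61 of 71 cells. The interferon gamma response had 3 of 4 measured genes above 1, and Iigp1 passed 1.5-fold downward at 0.561. That value rested on 1 vehicle cell with 44 of its 51 UMIs, and without the mixed barcodes Iigp1 had 7 UMIs in vehicle and 34 with beta-elemene.

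The remaining lists are given by their counts and sums. T cell receptor signalling had 6 of 13 measured genes above 1 and none past 1.5-fold, and without the mixed barcodes 2 of 13 were above 1, with Lck at 0.66. Activation and early response genes were below 1 in 10 of 13. Fos at 0.352 held 119 of its 177 vehicle UMIs in 1 cell and stood at 0.939 without the mixed barcodes. The dissociation and heat shock list was below 1 in 9 of 11, with a summed ratio of 0.856, which was 0.948 without the mixed barcodes. Costimulation genes were above 1 in 7 of 8, of which Cd5, a damper of receptor signals, passed 1.5-fold at 1.78, and Ifngr2 was the member past it among 8 measured cytokine receptors, at 1.93. Cd5 stood at 1.43 without the mixed barcodes, and 5 of 8 costimulation genes were then above 1. Several summed ratios crossed 1 when the mixed barcodes were left out. They went from 1.13 to 0.977 for costimulation, from 1.14 to 0.963 for checkpoint receptors, from 1.08 to 0.881 for cytotoxic genes, from 1.03 to 0.825 for follicular and exhausted helper genes and from 1.09 to 0.970 for cytokine receptors. In vehicle, costimulation UMIs went from 806 to 693 while the gate's total went from 286248 to 199010. With beta-elemene they went from 1078 to 1009 and the total from 340222 to 296580. Ratios with all cells thus depend on the mixed barcodes' part of the totals, which was larger in vehicle. The Th1 list went from 0.946 to 0.763, the Th17 list from 0.841 to 0.780, and homing and adhesion from 0.979 to 0.850. The Th2 list stood at 1.05 and 1.07, glycolysis at 1.08 and 1.05 and oxidative phosphorylation at 0.959 and 0.964. Helper cytokines and ligands stood at 1.25 and 1.18, apoptosis regulators at 1.24 and 1.09, and the naive and recirculation list at 1.16 and 1.005. Igfbp4, past 1.5-fold in the naive list, had 47 of its 54 beta-elemene UMIs in 1 cell and stood at 0.939 without the mixed barcodes.

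The same genes were read in the CD8 cells without Havcr2 or Gzmf, which come from the same 2 libraries. Klf2 had a ratio of 1.92 (1.46 to 2.56) there, Dusp1 of 2.19, Bcl2 of 1.44, Hk2 of 0.355 and Bcl2l1 of 0.517, each in the direction seen in the CD4 cells. Cxcr6 had a ratio of 0.743 (0.588 to 0.937). Selplg stood at 1.01 (0.845 to 1.21), Tpi1 at 1.00 and Cdk6 at 0.999, and Tnfsf11 at 0.256 (0.101 to 0.580). The difference between CD4 and CD8 cells in these ratios was not tested. Mixed barcodes were left in for the other gates. They held 18.5% (vehicle) and 19.6% (beta-elemene) of the UMIs of these CD8 cells. In regulatory CD4 cells they held 14.0% and 43.2%, and their part in the ratios was not tested. In regulatory CD4 cells, whose beta-elemene sum drew 27.3% of its UMIs from 1 cell, Klf2 had a ratio of 0.848 (0.401 to 1.85), Bcl2 of 0.975 (0.474 to 2.09) and Cxcr6 of 1.30 (0.622 to 2.92).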

How the data were processed

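The deposited values were raw UMI counts per gene and barcode of 2 libraries, written by Cell Ranger 7.1.0 per the file headers and mapped with Cell Ranger and STAR to mm10 per the submitters' processing notes. Which gene annotation was used, whether introns were counted and how cells were called are not given in the sources used here. The libraries held 11324 and 11539 barcodes with 168750895 and 157282740 UMIs. Barcodes with at least 200 genes and at most 20% mitochondrial UMIs were kept and gated on raw UMIs. Doublets were called with Scrublet in scanpy 1.11.5 and left in, since removing them was an alternative. The members, gene lists and alternatives were chosen with earlier results of these data known.

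Counts of the gate were summed per library and scaled to CPM. Ratios carry exact conditional binomial 95% intervals, shares exact binomial ones and differences of shares Newcombe ones. All cover counting error only, and reads of 1 library are no replicates. A ratio was called with at least 50 UMIs in both sums together, 1.5-fold and an interval off 1. Gates were compared with edgeR 4.0.16 (TMM, filterByExpr, quasi-likelihood, Benjamini-Hochberg), with 8 sums, the library as a term and 3 residual degrees of freedom; libraries are the repeats and gates of 1 library pair by origin. Thinned shares are expected values after drawing 1000 UMIs per cell. Interval and fit were tested on simulated counts.

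Named between libraries were the 12 highest and 12 lowest called ratios that kept their side of 1 without the top cell, were seen in at least 5% of cells and stood at no less than 50% of the level outside the gate. Named between gates were the 12 highest and 12 lowest called fold changes with the same direction in both libraries. Gate genes, mitochondrial, ribosomal protein, haemoglobin and receptor segment genes and unnamed models were not eligible. A few genes that met these rules are not reported here. From the lists, members past a call and the most abundant ones could be named. Positions are from GENCODE vM21, which matched 99.6% of gene identifiers. Python 3.11.15, numpy 2.4.6, scipy 1.17.1 and R 4.3.3 were used, with DESeq2 1.42.0 as an alternative.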

Additional observations from a re-analysis of the deposited data

Results flagged for a closer look

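Some genes named between the libraries had a counting interval on the opposite side of 1 in another T cell gate. The ratios in the other gates hold all their cells, mixed barcodes included, and the differences between gates were not tested. Hist1h1e, a linker histone, had a ratio of 2.43 in conventional CD4 cells and 0.627 in CD8 cells without Havcr2 or Gzmf, and Ndufb8, a subunit of respiratory complex I, had 1.87 and 0.774. Slfn5 had 0.249 in conventional CD4 cells and 2.08 in the CD8 cells. In conventional and in regulatory CD4 cells, in that order, Trp53inp1 had 3.31 and 0.381, Ece1 0.421 and 3.12, Mir155hg 0.470 and 4.96, and Penk 0.164 and 4.50. Mixed barcodes held 63.8% of the Trp53inp1 UMIs and 62.8% of the Penk UMIs in conventional CD4 cells. Without them Trp53inp1 stood at 2.12, with an interval from 0.816 that covered 1, and Penk at 0.459 (0.208 to 0.980). Mir155hg had 0.604 without the highest cell of each library.

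The other genes of this kind held from 95.2% to 99.5% of their conventional CD4 UMIs in mixed barcodes. In CD8 cells without Havcr2 or Gzmf Rarres2 had a ratio of 8.66, Dlc1 of 16.4, Cpxm1 of 4.33, Lum of 10.8 and Rbms3 of 11.7, while in conventional CD4 cells their ratios ran from 0.0051 to 0.105. Mixed barcodes also held 18.5% (vehicle) and 19.6% (beta-elemene) of all UMIs of these CD8 cells. Their part in the CD8 ratios was not tested.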

How the results depend on the processing

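The 127 cells came from 1 library per group, so intervals hold counting error only and are wide for sparse genes such as Cd40lg. The shares kept the sign of their difference except with Cd4 of at least 2 UMIs (-0.0200 points of kept barcodes, -2.74 of T cells) and thinned cells (-0.000366 and -0.852), all within the interval of the reported value. Genes higher with beta-elemene, 96 as reported, were 183 with median-of-ratios factors, 182 and 43 with minima of 20 and 100 UMIs, and 53 without mixed barcodes. Genes lower, 139 as reported, were 296 and 46 with those minima, 67 without the cell holding most UMIs of a gene, 73 without mixed barcodes, 87 with a C1q sum of 0 and 76 with Cd4 of at least 2 UMIs. Against regulatory cells, 16 higher and 23 lower as reported, the counts were 159 and 62 with no filter, 30 and 36 without called doublets, 42 and 37 with a C1q sum of 0 and 2 and 1 in a fit of the 2 gates alone. There were 9 higher without the library term (no replicate block, since gates of 1 library share their origin) and 36 lower without mixed barcodes. Against CD8 cells, 92 and 41 as reported, they were 59 and 19 by DESeq2, 240 and 96 with no filter, 169 and 84 without mixed barcodes and 197 and 102 in a fit of the 2 gates alone. The cause was not tested, apart from the change in genes or cells entering. Among ratios that turned were Trp53inp1 (0.628 with Cd4 of at least 2 UMIs), Postn (1.01 without mixed barcodes, 6.68 with a C1q sum of 0, 2.93 with Cd4 of at least 2 UMIs) and, with a C1q sum of 0, Cpxm1 (3.64), Lum (3.95) and Rbms3 (1.06). Col1a1 against regulatory cells turned to -0.082 without mixed barcodes. Each library alone kept the direction of every gene named between gates, as the rule required.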

Other observations

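Markers of lymphocytes outside the CD4 lineage were sparse in the gate. The list of gamma-delta and innate-like T cells summed to 9 UMIs in vehicle and 19 with beta-elemene, with Tcrg-C4, Sox13 and Blk at 0 in both libraries. The natural killer list summed to 20 and 12 UMIs. The mast list summed to 27 and 14 UMIs, of which Kit gave 26 and 14. Kit was seen in 8 cells of each library. Il10, a suppressive cytokine, had 6 UMIs in 3 vehicle cells and 10 in 1 beta-elemene cell.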
